A study of Mus musculus with 10 samples.

Results

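Homing receptors are the surface molecules with which a leukocyte leaves the blood and finds its place in a tissue. The 8 genes described here encode the selectin ligand Selplg (PSGL-1), the hyaluronan receptor Cd44 and the chemokine receptors Ccr1, Ccr2, Ccr7, Cxcr2, Cxcr4 and Cx3cr1. They were chosen by symbol, as 8 of the 22815 symbols of the count table, and all 8 were among the 10533 genes that passed the filter on low counts. The data are bulk RNA-seq of sorted lower-airway mast cells. The mice were wild type, of strain C57BL/6 and aged 5 to 7 weeks, and the libraries fall into 4 groups. These are B7hi cells after house dust mite extract (HDM, n = 3), B7low cells after HDM (n = 3), B7hi cells after saline (n = 2) and B7low cells after saline (n = 2). Challenge was intranasal, with 3 µg HDM in 20 µL saline or with saline alone, on 2 days of each week over 3 weeks. B7hi and B7low are the labels of the sorted populations. If B7 stands for integrin β7, its gene Itgb7 did not separate the populations with HDM, where it had 861, 341 and 688 CPM in B7hi and 550.3, 731 and 919 CPM in B7low libraries. With saline it had 681 and 1011 CPM in B7hi, against 603 and 570.2 CPM in B7low. The labels do not say whether a library came from 1 animal or from pooled animals, so p-values measure the spread between libraries, which may be partly technical.

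Selectins on activated endothelium catch passing leukocytes through glycans carried by PSGL-1. Chemokines then act through G protein-coupled receptors to switch on integrins, after which the cell crosses the vessel wall. Mast cell progenitors enter tissue from the blood in this way, with α4β7 integrin as a known requirement in the mouse intestine and in the inflamed lung, whereas constitutive mast cells are long-lived residents of connective tissue. CD44 binds hyaluronan in the matrix and serves in adhesion and migration.

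The libraries held 525983 (B7hi HDM 2) to 1725818 counts (B7hi saline 2). A gene without a count may thus have stood at up to 5.87 CPM in the shallowest library and 1.57 CPM in the deepest, taking 3 counts as the limit for counting error. The ribosomal RNA gene Rn45s took 181668 to 310900.0 CPM of each library. Summed over 9 markers, mast cell transcripts stood at 18736 to 30919 CPM in B7hi HDM, 48697 to 68232 CPM in B7low HDM, 13674 to 16270 CPM in B7hi saline and 55120 to 94017 CPM in B7low saline libraries. B7hi HDM 2 and B7low saline 2 stood apart in the nuclear transcript Kcnq1ot1, with 12133 CPM and 6956 CPM, where all remaining libraries had 806 to 2794 CPM. Defining markers of neutrophils and macrophages were near 0. S100a8 and C1qa had no count in any library, and Csf1r had at most 5.02 CPM. The 3 basophil markers were all detected in each group. They summed to 1113 to 1696 CPM in B7hi HDM and 954 to 1376 CPM in B7low HDM libraries. With saline they summed to 757 to 871 CPM in B7hi and 1103 to 1189 CPM in B7low. The part of the basophil markers in the member levels was not tested. In bulk samples fewer cells of a type and less RNA per cell cannot be told apart.

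Among the members that passed the test, Ccr1 had the largest population difference. Cx3cr1 had the highest mean CPM of the 8 members and did not pass in any comparison. The promoters of both are shown. Each runs 5′ to 3′ from 250 bases before the RefSeq start to 50 bases after it (GRCm38.p6), on the minus strand, at chr9:123968643-123968942 for Ccr1 and chr9:120068247-120068546 for Cx3cr1. Capitals mark matches to the letters searched.
Ccr1: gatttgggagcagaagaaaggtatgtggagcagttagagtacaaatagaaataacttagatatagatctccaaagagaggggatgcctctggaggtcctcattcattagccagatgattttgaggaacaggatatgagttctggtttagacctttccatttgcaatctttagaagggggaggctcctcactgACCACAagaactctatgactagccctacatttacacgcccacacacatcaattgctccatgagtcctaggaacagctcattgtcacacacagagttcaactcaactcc
Cx3cr1: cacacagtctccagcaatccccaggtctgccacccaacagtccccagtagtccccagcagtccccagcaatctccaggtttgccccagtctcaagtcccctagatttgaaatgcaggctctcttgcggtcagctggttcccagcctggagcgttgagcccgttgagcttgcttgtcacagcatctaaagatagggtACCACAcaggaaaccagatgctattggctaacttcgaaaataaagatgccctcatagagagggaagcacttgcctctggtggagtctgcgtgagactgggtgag
Letters searched on both strands were AGATAA for GATA factors, TGTGGT for RUNX factors, AGGAAG for ETS factors, TGANTCA for AP-1 and CACGTG for E-box factors. Each of these promoters held 1 match, to the RUNX letters on the opposite strand, beginning 58 bases before the start in Ccr1 and 54 bases before it in Cx3cr1. These letters occur in 16.8% of the 32851 RefSeq promoters of the same length, so such a match is a description and not a binding site. The table held promoters of 6 of the 8 members, the others being Selplg and Ccr7.

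Scaled to the length of all annotated exons of a gene together, Cx3cr1 had the highest mean of the 8 transcripts in every group. Cx3cr1 encodes the receptor for fractalkine, a membrane-bound chemokine, and is best known from monocytes and microglia. It averaged 138 ± 32.4 CPM per kb in B7hi HDM, 91.5 ± 19.7 in B7low HDM, 90.0 ± 2.44 in B7hi saline and 96.2 ± 34.5 in B7low saline (SD). Its range lay above that of the member next to it by mean in all 4 groups, but in B7low HDM it overlapped with the wide range of Ccr7. In B7low HDM 1 Ccr7 had 83.6 CPM per kb and Cx3cr1 76.4. The next member was Selplg, at 68.5, 51.4 and 85.9 CPM per kb in B7hi HDM, B7low HDM and B7hi saline, and Cd44, at 35.9 ± 12.4 CPM per kb, in B7low saline. Selplg and Cd44 overlapped in length-scaled level in every group but B7hi saline. Ccr1 stood at 44.9 ± 8.98 CPM per kb in B7hi saline, where it overlapped with Cd44, and at 3.26 ± 3.74 CPM per kb in B7low saline, where it overlapped with Ccr7 above it and Ccr2 below it. Cxcr4 held a middle place of 15.4 to 21.2 CPM per kb in all groups, and Ccr2 and Cxcr2 were low, at 1.77 to 6.24 and 2.44 to 11.1 CPM per kb. Exon lengths are those of GENCODE M21, which may differ from the annotation used for counting. The order also depends on the length used. All Selplg exons together span 4272 nt, against 2314 nt in its longest transcript, while Cx3cr1 has 4505 and 4493 nt. Scaled to the longest transcript, Selplg would stand above Cx3cr1 by mean in B7hi saline and in B7low HDM.

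**Figure D1:**
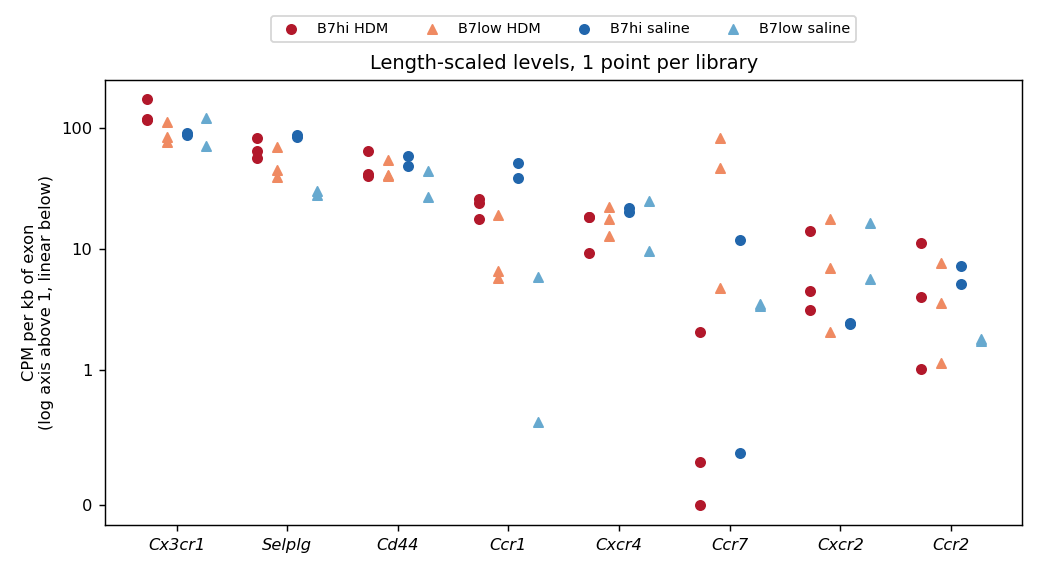
Level of each homing receptor in CPM per kb of exon (vertical, log axis above 1 and linear below), with 1 point per library and the 4 groups side by side. Scaled to all annotated exons together, Cx3cr1 has the highest mean in every group. Ccr7 reaches from 0 in B7hi HDM 2 to 83.6 in B7low HDM 1, above Cx3cr1 in that library (76.4).

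The selectin ligand gene Selplg (chromosome 5, 113818536 to 113832644, minus strand, mm10) was higher in B7hi than in B7low cells with saline. Its values were 376 and 359 CPM in the B7hi libraries with saline, against 121 and 130.4 CPM in the B7low ones. Both B7hi values lay far above both B7low values. The group means were 367 ± 11.98 and 126 ± 6.92 CPM (SD, n = 2 each). On the log2 scale B7hi exceeded B7low by 1.55 ± 0.31 (SE), with an edgeR adjusted p = 0.0068. With HDM, Selplg had 279, 243 and 355 CPM in B7hi, against 168, 194 and 297 CPM in B7low libraries. These ranges overlapped, and the log2 fold change of 0.41 ± 0.25 did not pass the test (edgeR adjusted p = 0.52). Over both challenges together the difference was 0.98 ± 0.20 (edgeR adjusted p = 0.0038). Leaving out B7hi saline 1 left the saline difference just short of the threshold (adjusted p = 0.0504, 8.2e-05 to 0.0504 over the alternatives), whereas the difference over both challenges passed with any 1 library left out.

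Ccr1 (chromosome 9, 123962124 to 123968692, minus strand) showed the larger of the called differences. Its product is a receptor for Ccl3, Ccl5 and related inflammatory chemokines, and in mice it is found on several myeloid cell types. With saline Ccr1 stood at 145 and 109 CPM in B7hi libraries, against 1.75 and 16.7 CPM in B7low libraries, the lowest of which rests on 1 count. The ranges were far apart. The means were 127 ± 25.4 and 9.24 ± 10.6 CPM (SD, n = 2 each), and the log2 fold change was 3.75 ± 0.69 (edgeR adjusted p = 0.0046). It was 6.12 without B7low saline 2, which leaves the B7low saline library with 1 count, and 2.96 without B7low saline 1. The call held in both cases, but the size of the difference depended on the B7low saline libraries. With HDM the B7hi libraries had 68.8, 74.4 and 50.0 CPM, against 54.2, 18.9 and 16.4 CPM in B7low. B7low HDM 1 thus fell within the B7hi range, and the log2 fold change of 1.18 ± 0.47 did not pass (edgeR adjusted p = 0.26), although it did without the filter on low counts (adjusted p = 0.038). Over both challenges the difference was 2.46 ± 0.42 (edgeR adjusted p = 0.0014). It passed with any 1 library left out, at 2.07 (without B7low saline 1) to 3.65 (without B7low saline 2).

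With saline, Ccr1 and Selplg were thus the 2 of 8 members that passed, both higher in B7hi, where 2.91% of all genes tested were higher and 6.54% passed in either direction. DESeq2 also called 2 of 8, against 8.62% of all genes. The median log2 fold change was 0.74 over the 8 members and 0.03 over all tested genes. For the mean of both challenges the same 2 members passed, against 5.8% of all genes higher and 11.9% in either direction, and with DESeq2 against 13.4%. With HDM alone 0 of 8 passed with edgeR, where 2.84% of all genes did. At an unadjusted p under 0.05 there were 3 (Ccr1, Ccr7 and Cx3cr1), against 13.6% of all genes, and DESeq2 called 1 (Ccr7), against 4.82%. Monocyte and macrophage markers, taken as a sum, were also higher in B7hi in the saline libraries, although at a low level and not marker by marker. The 10 markers summed to 33.3 CPM and 32.4 CPM in the B7hi libraries with saline, with Cd14, Lyz2, C1qa and C1qb at 0, against 10.5 and 15.05 CPM in B7low saline, with those 4 and Mrc1 at 0. Their part in the Ccr1 and Selplg differences was not tested. NK cell markers summed to 575 and 487 CPM in these B7hi libraries, against 52.5 and 161 CPM in B7low saline. Most of this was Nkg7, a gene of cytotoxic granules, at 521 and 448 CPM in the B7hi libraries and 36.7 and 124 CPM in the B7low libraries. The granule gene Prf1 had 50.6 and 28.7 CPM in B7hi and 14.0 and 36.8 CPM in B7low, and the defining NK receptor Ncr1 had at most 1.04 CPM in these 4 libraries. Klrd1 reached 8.35 CPM in B7hi saline 2 and was at 0 in the other 3 saline libraries. Epithelial markers also stood apart, the 5 summing to 177 and 127 CPM in the B7hi libraries and 10.5 and 26.8 CPM in the B7low libraries. Nearly all of this was the adhesion gene Cdh1 (177 and 124 CPM in B7hi, 10.5 and 18.4 CPM in B7low), with Sftpc and Krt8 at 0 in these 4 libraries and Epcam at most at 0.522 CPM. The part of the NK and epithelial markers in the differences was not tested either.

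**Figure D2:**
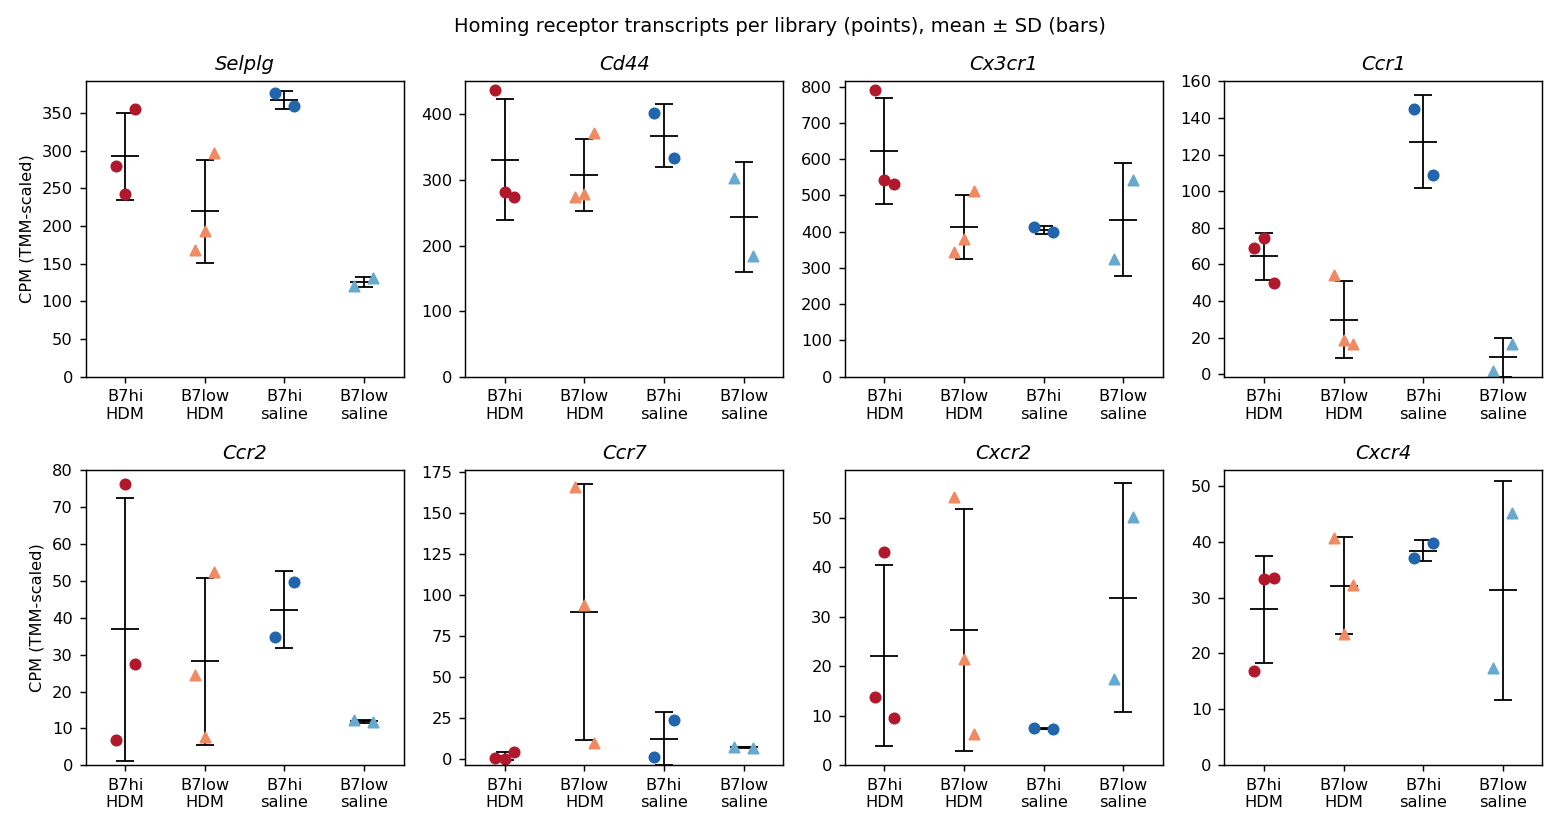
CPM of the 8 transcripts (vertical, linear axis from 0 or from the lower end of the lowest bar) in each library, by group, with the mean and SD as bars. Selplg and Ccr1 lie higher in B7hi than in B7low cells with saline, while Ccr7 is high in 2 of the 3 B7low HDM libraries.

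Cd44 (chromosome 2, 102811141 to 102901665, minus strand) differed little among the groups. It had 437, 282 and 275 CPM in B7hi HDM, against 274, 279 and 372 CPM in B7low HDM libraries. With saline it had 401 and 334 CPM in B7hi, against 302 and 184 CPM in B7low. The saline ranges did not overlap and the HDM ranges did. Ranges lay apart with saline in 5 members (Ccr1, Ccr2, Cd44 and Selplg higher, Cxcr2 lower), where 51.9% of all tested genes did the same. The log2 fold changes were 0.11 ± 0.26 with HDM and 0.60 ± 0.32 with saline (edgeR adjusted p = 0.91 and 0.30). The highest group mean was 1.51 times the lowest.

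Cx3cr1 (chromosome 9, 120048683 to 120068296 in RefSeq, minus strand) was the chemokine receptor with the most counts, 185 to 1264 per library. It had 790.0, 542 and 532 CPM in B7hi HDM, against 344, 379.8 and 512 CPM in B7low HDM libraries. Each B7hi HDM library was above each B7low HDM library, as held for 9.76% of all tested genes in this direction. The difference of 0.59 ± 0.25 on the log2 scale did not pass the test over all genes (edgeR adjusted p = 0.30). In saline-treated mice it had 413 and 398 CPM in B7hi, against 323 and 543 CPM in B7low, where the ranges overlapped (−0.10 ± 0.31, edgeR adjusted p = 0.89). The 10 monocyte and macrophage markers summed to 8.13, 13.7 and 13.7 CPM in B7hi HDM, against 29.8, 19.5 and 16.4 CPM in B7low HDM libraries. Of these, Csf1r was at 0.625, 0 and 0 CPM in the B7hi HDM libraries and at 0 in the B7low HDM libraries. The part of these markers in the Cx3cr1 levels was not tested.

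Ccr7 (chromosome 11, 99144196 to 99155077, minus strand) had the largest fitted difference of the 8 members, with HDM. Ccr7 is the receptor for Ccl19 and Ccl21 that takes lymphocytes and dendritic cells to lymph nodes. It had 0.625, 0 and 4.11 CPM in B7hi HDM, from 1, 0 and 6 counts, against 165, 93.7 and 9.48 CPM in B7low HDM libraries. The ranges did not overlap, as held for 10.7% of all genes in this direction, but B7low HDM 3 lay far below the other 2 of its group. The log2 fold change was −5.44 ± 1.46 (edgeR adjusted p = 0.12). It passed with DESeq2 (adjusted p = 0.0064) and with edgeR without B7low HDM 3 (adjusted p = 0.011), and the adjusted p ranged up to 0.33 over the alternatives. In saline libraries it had 0.756 and 23.5 CPM in B7hi, against 6.99 and 6.69 CPM in B7low, where the lowest and the highest value both came from B7hi.

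B cell markers followed the same libraries. The 6 markers summed to 5.63, 17.6 and 19.9 CPM in B7hi HDM, against 595, 377 and 79.6 CPM in B7low HDM libraries. With saline they summed to 12.1 and 68.9 CPM in B7hi, against 19.2 and 40.1 CPM in B7low. All 6 were detected in both HDM groups. Among the genes whose log2 CPM was most like that of Ccr7 over the 10 libraries, out of 6037 candidates, were the B cell receptor components Cd79a (Pearson r = 0.96) and Cd79b (0.90). Dendritic cell markers, which Ccr7 also accompanies in mature cells, summed to 17.6 to 27.5 CPM in B7hi HDM, with Ccl22 and Clec9a at 0, and to 12.6 to 32.5 CPM in B7low HDM libraries, with Fscn1 at 0. T cell markers reached 138 CPM in B7hi HDM 3 and at most 19.0 CPM in B7low HDM libraries. With saline they summed to 4.53 and 179 CPM in B7hi, against 10.5 and 30.1 CPM in B7low. The sum of 179 CPM came from B7hi saline 2, where Ccr7 had 23.5 CPM. The part of the B cell and T cell markers in the Ccr7 levels was not tested.

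**Figure D3:**
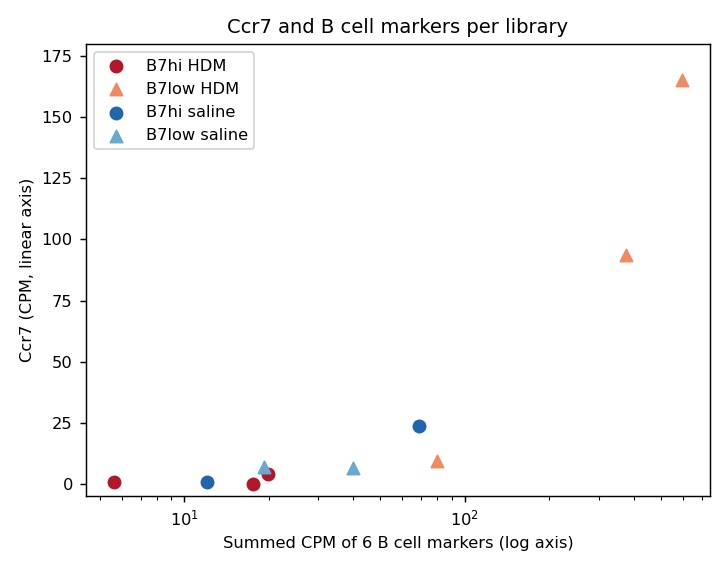
Ccr7 in CPM (vertical, linear axis) against the summed CPM of 6 B cell markers (horizontal, log axis), with 1 point per library. The 2 libraries with Ccr7 at 93.7 and 165 CPM, both B7low HDM, are those with the highest marker sums, 377 and 595 CPM.

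Ccr2, Cxcr2 and Cxcr4 had few counts. Ccr2 (chromosome 9, 124101950 to 124113557, plus strand), the receptor for Ccl2 that brings monocytes out of bone marrow, rested on 7 to 95 counts per library. It had 6.88, 76.3 and 27.4 CPM in B7hi HDM, against 24.4, 7.81 and 52.4 CPM in B7low HDM libraries. The HDM libraries of both populations thus spanned much the same range (log2 fold change 0.24 ± 0.78, edgeR adjusted p = 0.93). With saline it had 34.8 and 49.6 CPM in B7hi, against 12.2 and 11.7 CPM in B7low. These ranges were apart, from 7 counts in each B7low library, and the log2 fold change of 1.81 ± 1.06 did not pass (edgeR adjusted p = 0.36).

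Cxcr2 (chromosome 1, 74153989 to 74161246, plus strand), a receptor for neutrophil chemoattractants such as Cxcl1 and Cxcl2, had 10 to 40 counts per library. It had 13.8, 43.1 and 9.59 CPM in B7hi HDM, against 54.2, 21.5 and 6.32 CPM in B7low HDM libraries. After saline its values were 7.56 and 7.31 CPM in B7hi, against 17.5 and 50.2 CPM in B7low. It was the 1 member whose saline range lay lower in B7hi, a position 23.4% of all tested genes shared. The log2 fold change was −2.18 ± 0.93 (edgeR adjusted p = 0.19). The 2 libraries high in Kcnq1ot1, B7hi HDM 2 and B7low saline 2, were each the highest of their group. The saline difference was −1.21 without B7low saline 2 and −1.24 without both of these libraries. Of the 25-base stretches of the longest Cxcr2 transcript, 14.3% also occur in transcripts of other genes, the highest share among the members. Selplg, which passed with saline, came next at 10.3%.

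Cxcr4 (chromosome 1, 128588199 to 128592293, minus strand), the Cxcl12 receptor that holds leukocytes in bone marrow, had 16.9, 33.3 and 33.6 CPM in B7hi HDM, against 40.7, 23.4 and 32.2 CPM in B7low HDM libraries. The saline libraries had 37.0 and 39.7 CPM in B7hi, against 17.5 and 45.1 CPM in B7low. It varied least between groups, the highest group mean being 1.37 times the lowest. All comparisons of populations were far from the threshold, with log2 fold changes of −0.21 ± 0.42 with HDM and 0.29 ± 0.51 with saline (edgeR adjusted p = 0.88 and 0.78).

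The comparison of HDM with saline asks how allergen changes each population. None of the 8 members passed with edgeR or DESeq2 in B7hi or in B7low cells, where edgeR called 0.00949% of all genes in each and DESeq2 0.882% and 0.209%. In B7hi, 1 member had an unadjusted p under 0.05 (Cx3cr1, log2 fold change 0.62 ± 0.29), against 4.13% of all genes. In B7low there were 3, namely Selplg (0.81 ± 0.29), Ccr1 (1.58 ± 0.70) and Ccr7 (3.66 ± 1.58), against 9.08%. These comparisons use the same libraries as those of the populations.

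Selplg and Ccr1 stood closer together in the 2 populations after HDM. Selplg averaged 293 ± 57.5 CPM in HDM-challenged B7hi cells and 367 ± 11.98 CPM in saline B7hi cells, a log2 fold change of −0.32 ± 0.27. In B7low it averaged 219.6 ± 68.2 CPM with HDM and 126 ± 6.92 CPM with saline. The ranges did not overlap in either population. In B7hi the HDM range lay apart in 5 members (20.6% of all genes), higher in Cx3cr1 and Cxcr2 (10.2%) and lower in Ccr1, Cxcr4 and Selplg (10.4%). In B7low it lay apart in 2 (23.9%), higher in Ccr7 and Selplg (13.2%). Ccr1 averaged 64.4 ± 12.8 CPM with HDM and 127 ± 25.4 CPM with saline in B7hi (−0.99 ± 0.48), and 29.8 ± 21.1 and 9.24 ± 10.6 CPM in B7low. The difference between the HDM effects was −1.13 ± 0.40 for Selplg and −2.57 ± 0.85 for Ccr1 on the log2 scale. Neither passed over all genes (edgeR adjusted p = 0.46 for each). With edgeR 0 of the 8 members and 0 of all genes passed in this test, 3 members and 8.55% of all genes had an unadjusted p under 0.05, and DESeq2 called 0 members and 0.662% of genes.

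**Figure D4:**
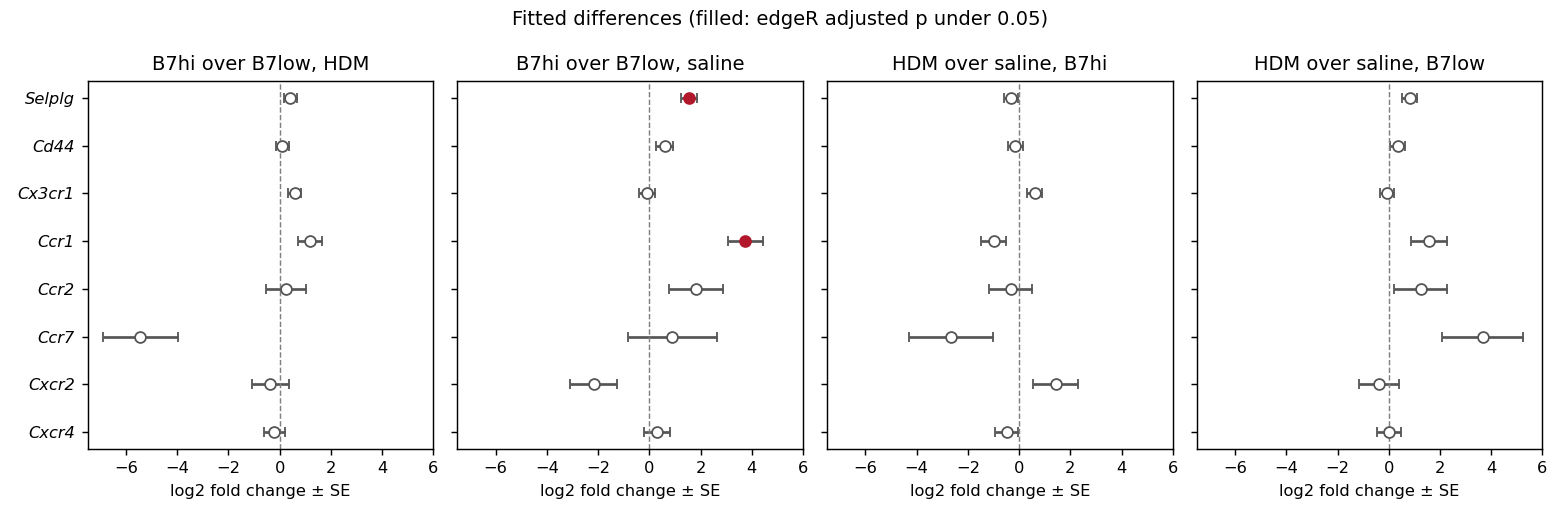
Fitted log2 fold changes with SE (horizontal) of the 8 members (rows) in 4 comparisons, with filled points for edgeR adjusted p under 0.05. Ccr1 (3.75) and Selplg (1.55) are filled, both for B7hi over B7low cells with saline.

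Genes around these receptors were described from lists chosen by function. Of all genes tested, edgeR called 2.84% with HDM, 6.54% with saline and 11.9% in the mean of both challenges, in either direction. The counts called in each list are small and are given beside these shares as descriptions. Of the 17 other chemokine receptors, 7 were tested. With HDM 1 was lower in B7hi and 0 higher, Cxcr5, the B cell follicle receptor (0.913 ± 1.58 against 34.5 ± 31.8 CPM, edgeR adjusted p = 0.030). B cell markers summed to 5.63 to 19.9 CPM in B7hi HDM and 79.6 to 595 CPM in B7low HDM libraries. Their part in the Cxcr5 difference was not tested. Cxcr5 itself rests on 4 counts in total in B7hi HDM and ran from 4.42 to 67.8 CPM in B7low HDM libraries. The call was kept in 4 of the 8 fits with 1 library left out in which the gene passed the filter. With saline 1 was lower and 0 higher, Ccrl2, an atypical receptor that presents chemerin (168 ± 84.5 against 419 ± 30.1 CPM, edgeR adjusted p = 0.027, kept in 7 of 10 such fits). The median log2 fold change of the 7 was 0.91 with HDM and 0.80 with saline, against 0.03 over all genes in each.

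Receptors for other chemoattractants went both ways. With saline B7hi cells had higher levels of 2 and a lower level of 1 of the 11 tested. Ltb4r1, the high-affinity leukotriene B4 receptor, had 120.2 ± 5.32 CPM in B7hi and 3.42 ± 0.108 CPM in B7low (log2 fold change 5.09 ± 0.77, edgeR adjusted p = 9.1e-04). The B7low level rests on 4 counts in total, so its small SD is no measure of precision. Gpr183, the oxysterol receptor, was also higher (1.53 ± 0.37) and S1pr3, a sphingosine 1-phosphate receptor, lower (−3.55 ± 0.84). S1pr3 rests on 5 counts in total in B7hi saline. Ltb4r1 kept its call in 10 of 10 fits with 1 library left out, and the others in 7 each. With HDM 1 of 11 was lower and 0 higher, the complement receptor C3ar1 (−3.16 ± 0.67, edgeR adjusted p = 0.016, kept in 6 of 10). C3ar1 rests on 13 counts in total in B7hi HDM and ran from 18.2 to 62.3 CPM in B7low HDM libraries. In the mean of both challenges 2 of the 11 were higher and 4 lower. The medians were 0.24 with saline and −1.34 with HDM.

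Among 10 tested selectin genes and enzymes that build selectin ligands, 1 was higher in B7hi with saline and 0 lower. This was Cd24a, a glycoprotein that can carry P-selectin ligands (498 ± 48.0 against 106 ± 90.9 CPM, edgeR adjusted p = 0.020, kept in 7 of 10 fits with 1 library left out). Over both challenges Tpst2, which sulfates tyrosines such as those of PSGL-1, passed as well (0.78 ± 0.21, edgeR adjusted p = 0.021, kept in 7 of 10). With HDM 0 of the 10 passed. The median log2 fold change of the 10 was 0.44 with saline and 0.45 with HDM.

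Of the 29 genes of chemokine receptor signalling, 3 were lower in B7hi with saline and 2 with HDM, and 0 were higher. Over all genes 6.54% passed with saline and 2.84% with HDM, in either direction. Rgs13, an inhibitor of G protein signalling known from mast cells and germinal centre B cells, had 4.50 ± 3.60 CPM in B7hi and 96.5 ± 15.7 CPM in B7low with HDM. With saline it had 2.79 ± 2.47 and 175 ± 61.1 CPM (log2 fold change −6.05 ± 0.64). The B7hi levels of Rgs13 rest on 13 counts in total with HDM and 8 with saline, and those of Pik3r6 on 18 and 16. Pik3r6, an adaptor of PI3Kγ, was lower with HDM (−3.07 ± 0.49) and with saline (−3.56 ± 0.58), and Rgs1 with saline (−2.23 ± 0.52, kept in 6 of 10 fits with 1 library left out). Rgs13 and Pik3r6 kept both calls in 10 of 10. The medians were −0.10 with HDM and 0.20 with saline.

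CD44 and hyaluronan partners gave 0 calls of 7 tested in every comparison, with medians of 0.03 with HDM and 0.61 with saline. Of 9 tested chemokine ligands of the members, 1 was higher and 1 lower in B7hi with saline. Ccl4 averaged 1997 ± 332 CPM in B7hi cells and 376 ± 19.1 CPM in B7low cells. Ccl2, the ligand of Ccr2, averaged 70.7 ± 33.7 CPM in B7hi cells and 1698 ± 909 CPM in B7low cells (edgeR adjusted p = 0.016 and 0.029, kept in 7 and 6 of 10 fits). The median of the 9 was 0.90 with saline and −0.58 with HDM, where 0 passed.

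The genes most like each of the other members over the 10 libraries, by Pearson r of log2 CPM among 6037 candidates, were as follows. Selplg was closest to the actin regulators Bin2 (0.98) and Wdr1 (0.97) and to Nono (0.97). Ccr1 was closest to Taldo1 (0.97), an enzyme of the pentose phosphate pathway, Trp53 (0.95) and Heatr5a (0.94). For Cx3cr1 they included Bmp7 (0.94) and Maml3 (0.88), and for Cd44 they were Baiap2 (0.95), Map1lc3b (0.93) and Swap70 (0.93). The libraries share depth and group structure, and the best of many candidates is high by selection, so these values are descriptions. For the receptors with few counts they were Lrrcc1 (0.95), Ogt (0.93) and Cbl (0.89) for Ccr2, Rab44 (0.93), Zfp709 (0.91) and Zfp300 (0.86) for Cxcr2, and Rictor (0.89), Dcaf17 (0.89) and Nsmce2 (0.87) for Cxcr4.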

How the data were processed

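Counts per gene symbol were deposited as a table of raw whole numbers with 1 column per library, each matched to its sample by title. Per the submitters' processing notes, TopHat2 2.0.10, Cufflinks 2.2.1, DESeq2 and build mm10 were used, with no role given. How reads were counted, on which annotation and whether by strand, is not given in the sources used here. Libraries were made with SmartSeq2, which amplifies full-length cDNA, and read as pairs of 25 nt, per the labels' protocols. Short reads shared with other genes may therefore have been misplaced.

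From the counts, edgeR 4.0.16 (R 4.3.3) fitted a quasi-likelihood model with robust spread, TMM scaling, filterByExpr and 1 mean per group over all 10 libraries. Tests were two-sided, with Benjamini-Hochberg adjustment over the 10533 genes and a threshold of 0.05. The SE is approximate, being the log2 fold change over the root of F. CPM is of the TMM-scaled library size, and log2 CPM used a prior count of 2. DESeq2 1.42.0, other scalings, no filter, replicate blocks and omitted libraries were alternatives. The procedure was tested on simulated data. The members, lists and odd libraries were chosen with earlier results of these data known. All 8 members are named, with up to 3 called genes per list and the 3 genes most like each member by Pearson r. Of the most alike genes, 1 each for Ccr7 and Cx3cr1 is not reported here. Positions are from GENCODE M21 and RefSeq on GRCm38, the build called mm10. Pairs of libraries within a group differed by a chi-square of 6.54 to 11.0 per degree of freedom, and each was counted as its own replicate.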

Additional observations from a re-analysis of the deposited data

Results flagged for a closer look

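The HDM range of Selplg lay apart from its saline range in opposite directions in the 2 populations, in B7hi only narrowly (355 against 359 CPM at the nearest). Neither HDM effect passed alone, at −0.32 ± 0.27 in B7hi and 0.81 ± 0.29 in B7low (edgeR adjusted p = 0.999 and 0.43). Each B7hi HDM library (243 to 355 CPM) was below each B7hi saline library (359 and 376 CPM), and each B7low HDM library (168 to 297 CPM) was above each B7low saline library (121 and 130.4 CPM). Of all tested genes, 10.4% lay apart and lower in B7hi, and 13.2% apart and higher in B7low. The share that did both was not computed. Subtracting the B7low from the B7hi log2 response to HDM gave −1.1341, and this difference did not pass over all genes (edgeR adjusted p = 0.46, 0.21 to 0.91 over the alternatives).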

How the results depend on the processing

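Over 48 pairs of member and comparison, 800 alternative values were computed. Of these 751 kept direction and side of the threshold, 41 reversed (each of an uncalled value), 7 newly passed and 1 no longer passed. Ccr1 and Selplg passed in the mean of both challenges under every alternative run. The members called with HDM were 0, but 1 with DESeq2 (Ccr7), 1 without the count filter (Ccr1) and 0 to 1 with 1 library left out. With saline they were 2, but 4 without the count filter (Ccr2 and Cxcr2 added) and 1 to 2 with 1 library left out. In the mean of both challenges they were 2, but 3 without the count filter (Cxcr2 added, adjusted p = 0.040). In the difference of HDM effects they were 0, but 1 without the count filter (Ccr1). A library left alone in its group was assumed to vary like the others, and the causes were not tested. Over all genes, calls were 299 with HDM (137 to 548), 689 with saline (226 to 1078), 1251 for the mean (659 to 1592), 1 for HDM in B7hi (0 to 89), 1 in B7low (0 to 112) and 0 for the difference of HDM effects (0 to 143). Scaling by library size alone shifted the median log2 fold change of all genes by 0.27, to 0.30, with saline.

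Values that turned sign are log2 fold changes. Without B7low saline 2 and B7hi HDM 2, Ccr2 with HDM was −0.77, Cx3cr1 with saline 0.32, and the HDM effect in B7low 0.57 for Cxcr2 and 0.35 for Cx3cr1. By library size alone Cx3cr1 was 0.16 with saline and 0.050 for HDM in B7low, and without the count filter 0.020 and 0.0073. Cxcr4 was −0.0064 (DESeq2 size factors) and −0.0056 (DESeq2) in the mean, and −0.039 and −0.036 for HDM in B7low. Leaving out 1 library, the population difference with HDM ran from −0.15 to 0.26 for Cd44, −0.78 to 1.17 for Ccr2, −1.18 to 0.54 for Cxcr2 and −0.40 to 0.081 for Cxcr4. With saline it ran from −3.01 to 1.78 for Ccr7, −0.19 to 1.15 for Cxcr4 and −0.38 to 0.35 for Cx3cr1, and in the mean from −0.21 to 0.47 for Cxcr4. The HDM effect in B7hi ran from −0.39 to 0.0038 for Cd44, −1.33 to 0.24 for Ccr2 and −4.47 to 1.22 for Ccr7. In B7low it ran from −1.29 to 0.58 for Cxcr2, −0.48 to 0.86 for Cxcr4 and −0.36 to 0.36 for Cx3cr1.

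Same-numbered libraries correlated at −0.112 to 0.041 in their deviations from group means. With 2 or 3 libraries per group, these values cannot decide whether same-numbered libraries were paired. With saline the 2 deviations of each group mirror each other by construction. With a block by replicate number, shared by both challenges, 2 members still passed with saline and 2 in the mean. The HDM effect in B7low then turned to 0.089 for Cxcr2 and −0.015 for Cxcr4. The block moved calls over all genes to 355 with HDM, 712 with saline and 1225 in the mean.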
